A study of Mus musculus with 15 samples.

Results

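The genes described here are 34 genes of the mouse that encode chaperones of the endoplasmic reticulum (ER), the sensors and the transcription factor of the unfolded protein response, and the machinery of ER-associated degradation (ERAD). They were chosen by symbol from a list of names, with earlier results of these data known. Of the 34, 33 were found among the 12721 genes listed for every group. Derl3, a derlin, was absent from the tables of all 5 groups and has no value here. By role the 33 were 15 chaperones and folding enzymes, 4 genes of stress sensing (Xbp1, Atf6, Ern1 and Eif2ak3), 12 ERAD genes and 2 genes of protein translocation (Sec61b and Ssr1).

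Secreted and membrane proteins fold in the ER with the help of chaperones such as the product of Hspa5 (BiP), of lectins that hold glycoproteins, and of disulfide isomerases. When unfolded proteins accumulate, the membrane sensors encoded by Ern1 (IRE1), Atf6 and Eif2ak3 (PERK) become active. They splice Xbp1 mRNA, release a transcription factor from ATF6 and slow translation, and genes for chaperones and for ERAD are then transcribed. ERAD recognises misfolded proteins in the ER lumen, draws them through the membrane and hands them to the proteasome. Low oxygen is a known stress on disulfide formation in this compartment.

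All cells were B16.F10, a mouse melanoma line, kept in 1% oxygen throughout, so no group is a normoxic reference. There were 5 groups of 3 RNA-seq libraries. Control cells had no named treatment, and NC_siRNA cells received a negative control siRNA. Hif1a_siRNA cells received an siRNA against Hif1a, the oxygen-regulated subunit of HIF-1. Dox cells received doxorubicin, an anthracycline that damages DNA through topoisomerase II, with no siRNA named, and Hif1a_siRNA_Dox cells received the Hif1a siRNA followed by the drug. The siRNAs were given at 25 nM in lipoplexes, and doxorubicin at 0.25 µM for 24 h. No group had the negative control siRNA together with doxorubicin. The comparison of Hif1a_siRNA_Dox with Dox therefore changes transfection and Hif1a at the same time, and these cannot be told apart in it. Each title numbers its library as a biological replicate, but nothing tells whether these were grown apart, so the p-values speak of differences among libraries that may be technical.

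Library totals ran from 23825110 to 28734303 reads over the listed genes. Levels are CPM, a gene's reads relative to all reads of its library, scaled by TMM factors, and fold changes are log2 values ± standard error (SE) from edgeR's quasi-likelihood test across all 12721 genes. A gene was called at a Benjamini-Hochberg adjusted p under 0.05. Hif1a itself stood at 15.9 to 18.9 CPM in Hif1a_siRNA and 11.6 to 14.2 in the combination, below the 137 to 153 of Dox, the 204 to 231 of Control and the 264 to 289 of NC_siRNA. All 7 markers of the melanocyte lineage were detected, with a summed level of 13410 to 14550 CPM in Control, 8284 to 9403 over the 6 siRNA libraries without the drug, 39670 to 46300 in Dox and 29670 to 36490 in the combination. The sum rests mainly on Pmel, Tyrp1, Dct and Mlana, and 2 of the 7 fell with the drug: Sox10, from 192 to 206 CPM in Control to 25.4 to 30.1 in Dox, and Tyr, from 72.2 to 82.4 to 55.4 to 61.9. Of the markers of other cell types, 2 of 5 fibroblast genes (Col1a1 and Pdgfra) and 1 of 5 leukocyte genes (Cd68) were listed for all groups, and none of 4 endothelial genes. The fibroblast sum was 2.49 to 6.62 CPM over the 9 libraries without the drug, 37.2 to 60.7 in Dox and 61.8 to 85.7 in the combination, and Cd68 was at 18.9 to 30.1 CPM in Control, 12.8 to 17.6 in NC_siRNA, 7.22 to 7.71 after knockdown, 4.03 to 6.09 in Dox and 5.46 to 9.50 in the combination. Mitochondrially encoded genes took 1.38% to 1.47% of reads in Control, 1.64% to 2.11% in the siRNA groups without the drug, 3.37% to 4.08% in Dox and 3.90% to 5.07% in the combination. The part of these shifts in the results below was not tested. The libraries are bulk RNA, so fewer cells of a kind and less RNA per cell cannot be told apart. The values of 4 members, written here with the listed genes whose exons they overlap, are less certain: Derl2 (Mis12), Manf (Dcaf1 and Rbm15b), Syvn1 (Mrpl49) and Hsp90b1 (1810014B01Rik). Rbm15b lies on the same strand as Manf, so that overlap is uncertain under any strand setting. The others lie on the opposite strand, and the strand setting of the counting is not given in the sources used here.

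The promoters of several members carry the ER stress response element (ERSE), whose letters are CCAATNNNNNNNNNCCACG, and these are shown because genes with the same element moved in opposite directions with doxorubicin. The CCAAT end of the element is known to bind NF-Y and the CCACG end ATF6. The 250 bases before each start site were read from the RefSeq promoter table of GRCm38.p6, which holds 29 of the 33 members, and both strands were searched. Hyou1, Manf, Atf6 and Derl1 are missing from it, so their promoters were not searched. The window of Edem1, chr6:108828391-108828640, lies inside the gene as listed, which starts at 108824045. Bases before that start were not searched, though Edem1 is counted with the members without ERSE letters. The windows of Eif2ak3 and Edem3 end just inside the listed genes. ERSE was found in 8 of the 29 (27.6%), against 0.13% of all 27025 genes in the table. The members were chosen as genes of the ER stress response, so these shares are a description and not a test. The 8 were Hspa5, Hsp90b1, Pdia6, Calr, Canx, Dnajc3, Creld2 and Syvn1. Hsp90b1 had a pair of exact matches, from 212 to 194 and, on the other strand, from 107 to 89 bases before the start. In Hspa5 an exact match lay from 65 to 47 bases before the start. Only exact letters were searched, so copies with a changed letter are not in these counts. Herpud1 held the related element named ERSE-II, which 0.037% of all genes hold. The sequences read 5′ to 3′ on the strand of the gene, and capitals mark the fixed letters of ERSE, or of ERSE-II in Herpud1, with the spacer left in lower case.
Hspa5, chr2:34771840-34772089, plus strand: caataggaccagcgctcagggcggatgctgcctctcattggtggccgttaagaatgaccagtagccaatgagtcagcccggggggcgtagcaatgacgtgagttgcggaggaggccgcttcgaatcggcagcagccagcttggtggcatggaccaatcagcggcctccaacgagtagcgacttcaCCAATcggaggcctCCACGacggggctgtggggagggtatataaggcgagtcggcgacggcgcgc
Hsp90b1, chr10:86705445-86705694, minus strand: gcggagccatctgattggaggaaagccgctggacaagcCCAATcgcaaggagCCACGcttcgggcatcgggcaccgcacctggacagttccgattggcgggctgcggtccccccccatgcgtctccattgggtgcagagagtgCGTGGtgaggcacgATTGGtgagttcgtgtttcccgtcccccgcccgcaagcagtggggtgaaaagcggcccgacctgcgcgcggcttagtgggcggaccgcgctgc
Calr, chr8:84846932-84847181, minus strand: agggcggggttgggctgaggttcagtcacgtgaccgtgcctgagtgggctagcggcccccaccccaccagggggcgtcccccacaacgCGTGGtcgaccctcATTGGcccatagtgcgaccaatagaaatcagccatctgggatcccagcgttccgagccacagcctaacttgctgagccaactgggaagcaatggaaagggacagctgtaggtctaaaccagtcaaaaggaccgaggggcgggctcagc
Creld2, chr15:88819396-88819645, plus strand: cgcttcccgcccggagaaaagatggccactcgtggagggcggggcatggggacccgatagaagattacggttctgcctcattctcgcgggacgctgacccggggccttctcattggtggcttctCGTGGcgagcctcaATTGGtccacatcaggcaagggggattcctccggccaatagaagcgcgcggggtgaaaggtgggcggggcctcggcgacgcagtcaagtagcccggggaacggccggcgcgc
Pdia6, chr12:17266339-17266588, plus strand: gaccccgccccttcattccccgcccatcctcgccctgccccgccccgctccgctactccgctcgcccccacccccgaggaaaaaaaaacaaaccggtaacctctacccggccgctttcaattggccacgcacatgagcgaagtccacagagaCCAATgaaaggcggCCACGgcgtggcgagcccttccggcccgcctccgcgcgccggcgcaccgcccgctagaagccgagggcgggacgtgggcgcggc
Herpud1, chr8:94386179-94386428, plus strand: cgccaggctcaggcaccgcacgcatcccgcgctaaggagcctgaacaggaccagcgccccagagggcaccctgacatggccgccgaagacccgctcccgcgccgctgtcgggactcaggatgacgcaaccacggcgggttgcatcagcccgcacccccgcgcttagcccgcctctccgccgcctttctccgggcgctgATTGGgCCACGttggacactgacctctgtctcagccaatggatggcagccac

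Other motifs searched in the same windows were less particular. The letters TGACGTGG of the XBP1-type element were found in Vcp and Ube2j1 (6.9% of 29 members and 0.603% of all genes). The core of the hypoxia response element, ACGTG, which can overlap both TGACGTGG and ERSE-II, was found in 13 of 29 (44.8%) and in 18.5% of all genes. The 13 were Hspa5, Pdia6, Calr, Dnajb9, Dnajc3, Herpud1, Edem2, Edem3, Os9, Vcp, Ube2j1, Selenos and Ssr1. The ATF4-type letters TTGCATCA were found in Herpud1 alone (3.45% of members and 0.918% of all genes). A match is a description of the letters and does not show that a factor binds.

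**Figure D1:**
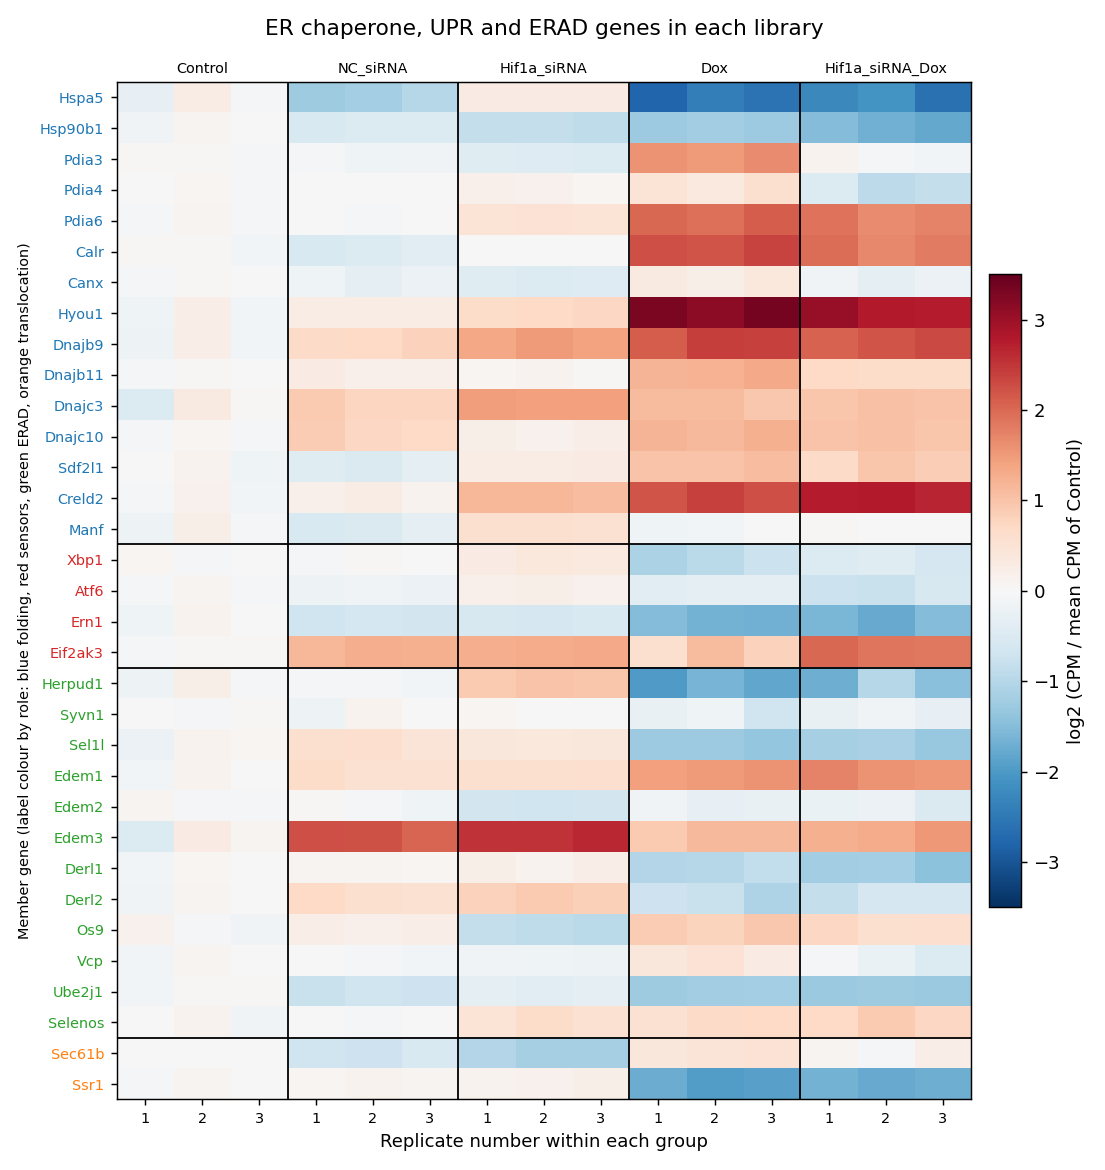
Level of each of the 33 members (rows, by role) in each of the 15 libraries (columns), as log2 of CPM over the mean CPM of Control. In the Dox columns Hspa5, Hsp90b1, Ern1, Herpud1, Sel1l and Ssr1 are blue while Hyou1, Calr, Creld2, Dnajb9 and Pdia6 are red, and Edem3 is deepest red in the 6 libraries of NC_siRNA and Hif1a_siRNA.

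The effect of doxorubicin alone was read from Dox against Control. The chaperone genes split. Hspa5, which encodes the main ER chaperone BiP, fell 5.99-fold and Hsp90b1, which encodes the ER form of HSP90, fell 2.4-fold, while 12 of the 15 chaperone and folding genes rose, led by Hyou1 (9.56-fold). Ern1, Xbp1 and Atf6 fell and Eif2ak3 rose, and of 12 ERAD genes 5 rose and 7 fell. In all, 19 of 33 members rose and 13 fell, where 43.9% of all tested genes rose and 39.8% fell. The median log2 change was 0.45 over the members and 0.10 over all genes, and 19 of 33 members changed at least 2-fold, against 51.3% of all genes. The groups did not overlap for 32 of 33 members, against 84.9% of all genes. The share of members that changed at all was therefore not far above that of other genes, and what follows concerns which of them rose and which fell.

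Hspa5 was at 1589, 2317 and 1881 CPM in Control, 813, 851 and 969 in NC_siRNA, 2359, 2375 and 2350 in Hif1a_siRNA, 284, 359 and 323 in Dox, and 401, 450 and 317 in Hif1a_siRNA_Dox. The 6 libraries with doxorubicin were all below the 9 without it. Its change with the drug was −2.58 ± 0.15 (SE, edgeR adjusted p = 3.47e-10), a 5.99-fold decrease. Hsp90b1 fell from 3119 ± 238 to 1302 ± 33 CPM (mean ± SD, n = 3), a change of −1.26 ± 0.07 (edgeR adjusted p = 2.81e-14). Both of these genes carry the ERSE letters printed above.

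Hyou1, whose product exchanges the nucleotide of BiP, was the member with the largest increase. Its levels were 102, 132 and 107 CPM in Control, 135, 136 and 135 in NC_siRNA, 177, 184 and 186 in Hif1a_siRNA, 1108, 987 and 1159 in Dox, and 936, 777 and 762 in Hif1a_siRNA_Dox. Every library with the drug lay above every library without it, and the change was 3.26 ± 0.10 (edgeR adjusted p = 1.07e-18). Calr encodes the soluble lectin chaperone calreticulin. It was at 625, 618 and 564 CPM in Control, 417, 429 and 453 in NC_siRNA, 591, 599 and 607 in Hif1a_siRNA, 2899, 2754 and 3103 in Dox, and 2352, 1938 and 2141 in Hif1a_siRNA_Dox. It rose by 2.28 ± 0.07 (edgeR adjusted p = 1.3e-18), and its membrane-bound relative Canx rose by 0.30 ± 0.06.

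The 4 genes for J-domain proteins, which bring substrates to BiP, all rose. Dnajb9 was at 21.2, 28.4 and 22.3 CPM in Control, 38.4, 38.7 and 42.2 in NC_siRNA, 61.1, 67.6 and 63.3 in Hif1a_siRNA, 104, 129 and 126 in Dox, and 99.5, 111 and 120 in Hif1a_siRNA_Dox. It stood lowest in Control and highest with doxorubicin, and changed by 2.32 ± 0.11. Dnajb11 rose by 1.24 ± 0.06, Dnajc10, a reductase, by 1.19 ± 0.07 and Dnajc3 by 1.06 ± 0.12. Among disulfide isomerases, Pdia6 rose by 2.02 ± 0.07, Pdia3, the partner of the lectin chaperones, by 1.57 ± 0.07 and Pdia4 by 0.46 ± 0.08. Creld2, an ER stress-inducible gene whose product can be secreted, was at 15.7, 18.3 and 15.6 CPM in Control, 18.6, 19.7 and 17.9 in NC_siRNA, 37.3, 36.6 and 35 in Hif1a_siRNA, 75.9, 86.1 and 78.8 in Dox, and 112, 113 and 105 in Hif1a_siRNA_Dox. Its change with the drug was 2.28 ± 0.09, and Sdf2l1, whose product works with that of Dnajb11, rose by 1.03 ± 0.09. Manf, another stress-inducible secreted factor, was at 86.9 ± 12 CPM in Control and 82.0 ± 4.9 in Dox and did not pass (−0.08 ± 0.08, edgeR adjusted p = 0.35).

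Of the 8 genes with ERSE letters, 5 rose (Calr, Creld2, Pdia6, Dnajc3 and Canx) and 3 fell (Hspa5, Hsp90b1 and Syvn1), with a median of 0.68. Of the 21 members with a promoter in the table and no ERSE letters, 13 rose and 8 fell, with a median of 0.46. Herpud1, with ERSE-II, fell.

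**Figure D2:**
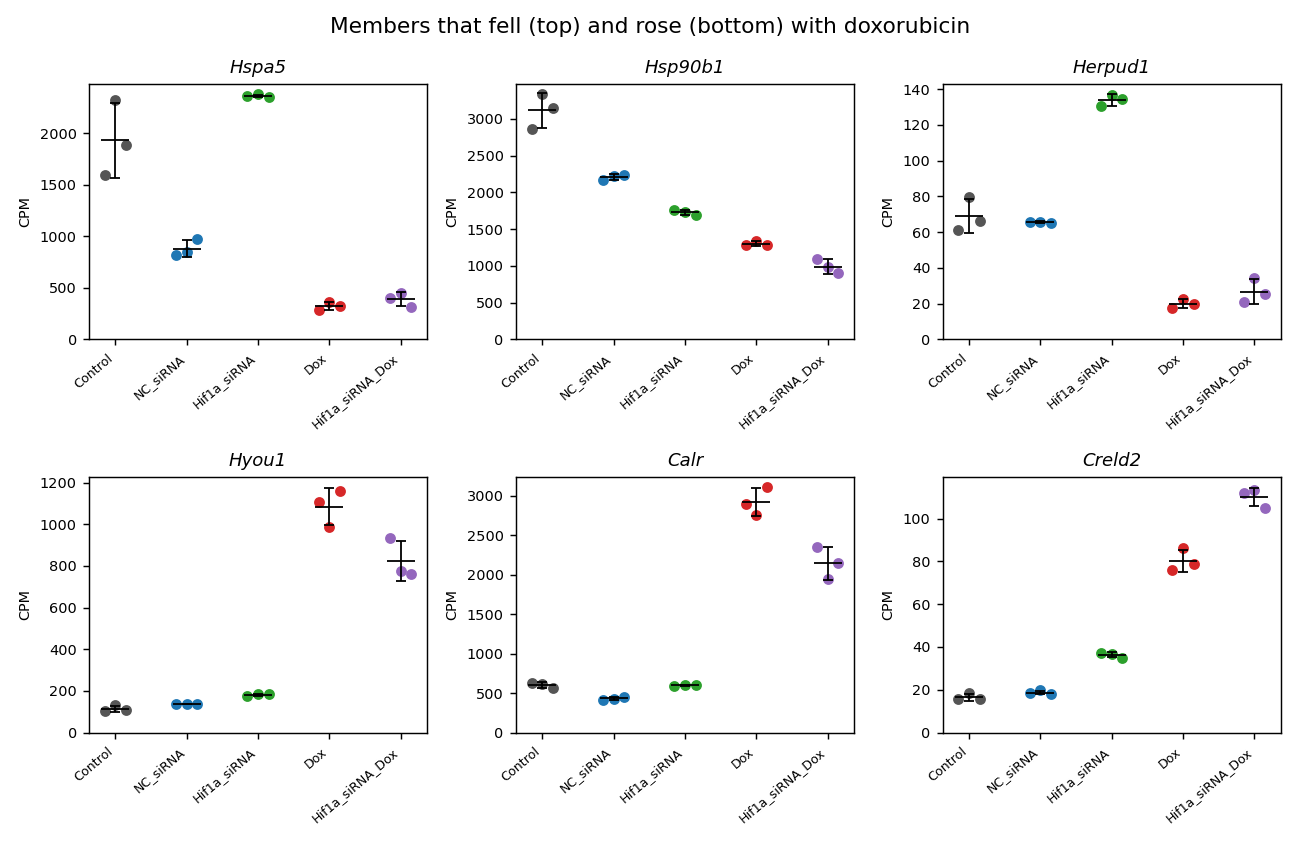
CPM in each library (points; bars give the mean and SD of 3 libraries) by group, for 3 members that fell with doxorubicin (top row) and 3 that rose (bottom row). Hspa5 is at 284 to 450 CPM in the 6 libraries with the drug, and Hyou1 at 762 to 1159.

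The genes for stress sensing had low to moderate counts and moved separately. Ern1, the sensor that splices Xbp1 mRNA, was at 85.8, 103 and 97.1 CPM in Control, 58.5, 62.5 and 60.8 in NC_siRNA, 64.9, 63.0 and 65.3 in Hif1a_siRNA, 33.6, 30.4 and 29.7 in Dox, and 31.5, 28.2 and 33.4 in Hif1a_siRNA_Dox. It fell by 1.61 on the log2 scale with doxorubicin (SE 0.09, edgeR adjusted p = 1.77e-14). Xbp1 was at 72.8, 68.0 and 69.2 CPM in Control, 68.1, 71.8 and 69.6 in NC_siRNA, 85.6, 91.1 and 88.2 in Hif1a_siRNA, 32.3, 36.6 and 41.9 in Dox, and 49.8, 52.5 and 46.6 in Hif1a_siRNA_Dox. It changed by −0.92 ± 0.08 with the drug, and gene-level counts do not separate its spliced from its unspliced mRNA.

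Atf6, the sensor that is cut to a transcription factor, was at 153, 170 and 157 CPM in Control, 141, 146 and 139 in NC_siRNA, 182, 183 and 177 in Hif1a_siRNA, 123, 125 and 129 in Dox, and 94.3, 92.6 and 109 in Hif1a_siRNA_Dox. Its decrease with the drug was small (−0.34 ± 0.07), and −0.22 with upper-quartile scaling. Eif2ak3, the kinase that slows translation, went the other way. It was at 24.2, 25.95 and 25.9 CPM in Control, 56.6, 60.8 and 59.8 in NC_siRNA, 61.7, 62.4 and 64.1 in Hif1a_siRNA, 37.0, 54.2 and 44.0 in Dox, and 102, 92.9 and 90.7 in Hif1a_siRNA_Dox. Control was lowest and the combined treatment highest, without overlap with any other group. The change with doxorubicin was 0.83 ± 0.10 (edgeR adjusted p = 7.15e-08).

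**Figure D3:**
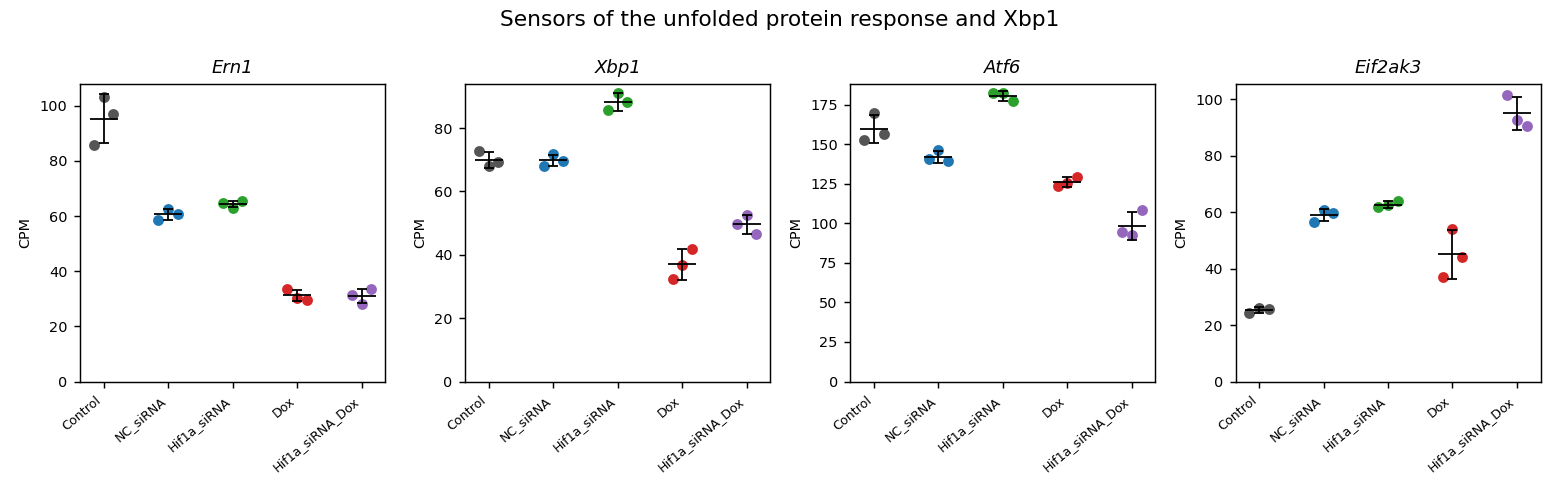
CPM in each library (points; bars give the mean and SD of 3 libraries) by group for Ern1, Xbp1, Atf6 and Eif2ak3. Ern1 is at 28.2 to 33.6 CPM in the 6 libraries with doxorubicin, and Eif2ak3 at 24.2 to 25.95 CPM in Control and 90.7 to 102 in Hif1a_siRNA_Dox.

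ERAD genes divided within the same complexes. Herpud1, a scaffold of the ERAD ligase, was at 61.3, 79.4 and 65.9 CPM in Control, 65.7, 65.8 and 65.1 in NC_siRNA, 131, 137 and 134 in Hif1a_siRNA, 17.4, 22.5 and 19.6 in Dox, and 20.9, 34.2 and 25.1 in Hif1a_siRNA_Dox. It fell 3.48-fold with the drug (−1.80 ± 0.14, edgeR adjusted p = 1.97e-10). Sel1l, the adaptor of the ligase, changed by −1.29 ± 0.08, and Syvn1, the ligase HRD1, by −0.34 ± 0.11. Syvn1 did not pass without replicate 3 of Dox (−0.20, edgeR adjusted p = 0.0626) or with upper-quartile scaling (−0.22, edgeR adjusted p = 0.0613). The derlins Derl1 (−0.95 ± 0.07) and Derl2 (−0.85 ± 0.10), which form the passage through the membrane, also fell.

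Ube2j1, the ubiquitin-conjugating enzyme of the pathway, was at 98.5, 110 and 110 CPM in Control, 62.2, 65.9 and 63.9 in NC_siRNA, 84.7, 82.6 and 83.3 in Hif1a_siRNA, 44.6, 46.0 and 46.1 in Dox, and 43.4, 44.6 and 42.7 in Hif1a_siRNA_Dox. It fell by 1.22 on the log2 scale (SE 0.07). Against these, Edem1 (1.5 ± 0.07) and Edem3 (1.06 ± 0.13), which trim mannose from misfolded glycoproteins, rose, as did the lectin gene Os9 (0.88 ± 0.07), Selenos (0.64 ± 0.08), whose product recruits the ATPase VCP, and Vcp (0.40 ± 0.08). Edem2 changed by −0.22 ± 0.08 and did not pass without replicate 1 of Control (−0.17, edgeR adjusted p = 0.0843), without replicate 2 of Dox (−0.19, edgeR adjusted p = 0.0727) or with upper-quartile scaling (−0.10, edgeR adjusted p = 0.284). In this comparison the median over all genes lay 0.125 higher with upper-quartile factors.

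Of the translocation genes, Ssr1, a subunit of the translocon-associated protein complex, was at 166, 185 and 173 CPM in Control, 182, 189 and 186 in NC_siRNA, 191, 194 and 200 in Hif1a_siRNA, 52.1, 44.8 and 46.4 in Dox, and 55.1, 51.3 and 53.1 in Hif1a_siRNA_Dox. The 6 drug-treated libraries were far below the other 9 (−1.87 ± 0.07, edgeR adjusted p = 2.74e-17). Sec61b, a small subunit of the channel itself, was at 84.9, 82.8 and 84.1 CPM in Control, 51.7, 50.8 and 57.7 in NC_siRNA, 40.9, 37.3 and 37.4 in Hif1a_siRNA, 110, 115 and 120 in Dox, and 89.7, 80.3 and 98.6 in Hif1a_siRNA_Dox. It rose with the drug (0.45 ± 0.08).

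The knockdown comparison set Hif1a_siRNA against NC_siRNA. Other effects of the siRNA's own sequence cannot be told apart from loss of Hif1a mRNA in it. The largest increases were those of Hspa5 and Herpud1, the members that fell most steeply with doxorubicin beside Ssr1, and the largest decreases were those of Os9 and Edem2. Of 33 members 16 rose and 8 fell, where 36.4% of all tested genes rose and 31.2% fell, with a median of 0.14 over the members and 0.06 over all genes. At least 2-fold changes were seen in 4 of 33 members, against 21.8% of all genes. The groups did not overlap for 31 of 33 members, against 77.3% of all genes.

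Hspa5 changed by 1.43 ± 0.14 (edgeR adjusted p = 4.98e-07), and Herpud1 by 1.03 ± 0.13 (edgeR adjusted p = 5.72e-07). For Hspa5 the negative control siRNA had itself lowered the level (−1.14 ± 0.14 against Control), and the 3 Hif1a_siRNA libraries at 2350 to 2375 CPM lay just above the highest Control library at 2317. Herpud1 was at 65.1 to 65.8 CPM in NC_siRNA and 61.3 to 79.4 in Control, and both groups lay well below the 131 to 137 CPM of Hif1a_siRNA. Manf rose from 63.2 ± 4.3 to 127 ± 1.6 CPM (1.01 ± 0.08, edgeR adjusted p = 2.35e-10) and Creld2 by 0.96 ± 0.08.

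Other folding genes that rose were Dnajb9 (0.69 ± 0.10), Sdf2l1 (0.69 ± 0.09), Dnajc3 (0.64 ± 0.12), Pdia6 (0.51 ± 0.07), Calr (0.47 ± 0.07) and Hyou1 (0.43 ± 0.09). Dnajc10 (−0.58 ± 0.07), Hsp90b1 (−0.35 ± 0.07), Pdia3 (−0.34 ± 0.07), Canx (−0.22 ± 0.06) and Dnajb11 (−0.14 ± 0.06) were lower, and Pdia4 did not pass (0.14 ± 0.08). Dnajb9, Sdf2l1, Dnajc3, Pdia6 and Hyou1 also had means above those of Control, and Hsp90b1, Pdia3 and Canx had means below. Calr, at 599 CPM in Hif1a_siRNA, was instead near its Control mean of 602. Dnajc10 and Dnajb11, at 109 and 120 CPM, lay above their Control means of 95.5 and 113. Atf6 (0.35 ± 0.07) and Xbp1 (0.34 ± 0.08) rose slightly. Ern1 (0.09 ± 0.08) and Eif2ak3 (0.09 ± 0.10) did not pass.

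Os9, whose product delivers glycoproteins to the ERAD ligase, was at 220, 193 and 184 CPM in Control, 232, 226 and 234 in NC_siRNA, 111, 108 and 104 in Hif1a_siRNA, 371, 345 and 384 in Dox, and 327, 294 and 301 in Hif1a_siRNA_Dox. The 3 Hif1a_siRNA libraries were the lowest of all 15, and the change against NC_siRNA was −1.10 ± 0.07 (edgeR adjusted p = 1.99e-12). Edem2 was at 79.0, 69.8 and 72.0 CPM in Control, 75.5, 71.4 and 66.2 in NC_siRNA, 47.1, 45.7 and 47.4 in Hif1a_siRNA, 67.3, 59.8 and 62.0 in Dox, and 62.2, 63.3 and 51.6 in Hif1a_siRNA_Dox. It too was lowest in Hif1a_siRNA, and changed by −0.60 ± 0.08 against NC_siRNA.

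Among the remaining ERAD genes, Selenos (0.57 ± 0.08), Edem3 (0.39 ± 0.12), Ube2j1 (0.38 ± 0.07) and Derl2 (0.27 ± 0.09) rose. The means of Selenos, Edem3 and Derl2 were also above those of Control. Ube2j1, at 83.5 CPM in Hif1a_siRNA, stayed below its Control mean of 106. Sel1l (−0.16 ± 0.07), Vcp (−0.09 ± 0.08), Derl1 (0.10 ± 0.07), Syvn1 (0.04 ± 0.11) and Edem1 (0.00 ± 0.07) did not pass, and neither did Ssr1 (0.07 ± 0.07), while Sec61b was lower (−0.47 ± 0.08). The small changes of Dnajb11 and Derl2 rest on single libraries. Dnajb11 did not pass without replicate 1 or 2 of NC_siRNA (−0.11 and −0.16, edgeR adjusted p = 0.188 and 0.0505), without replicate 1 or 3 of Hif1a_siRNA (−0.14 and −0.13, edgeR adjusted p = 0.0988 and 0.111), or with a replicate block (edgeR adjusted p = 0.0539). Derl2 did not pass without replicate 3 of NC_siRNA (0.23, edgeR adjusted p = 0.0661) or replicate 2 of Hif1a_siRNA (0.23, edgeR adjusted p = 0.0717). Sel1l passed without replicate 3 of NC_siRNA (−0.20, edgeR adjusted p = 0.0427), with RLE factors (−0.20, edgeR adjusted p = 0.0246) and with upper-quartile factors (−0.17, edgeR adjusted p = 0.0362). It also passed with DESeq2 (−0.20, adjusted p = 0.0231) and with limma (−0.16, adjusted p = 0.0464). A fit of these groups alone called both Sel1l (−0.21, edgeR adjusted p = 9.72e-05) and Vcp (−0.14, edgeR adjusted p = 0.00269).

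**Figure D4:**
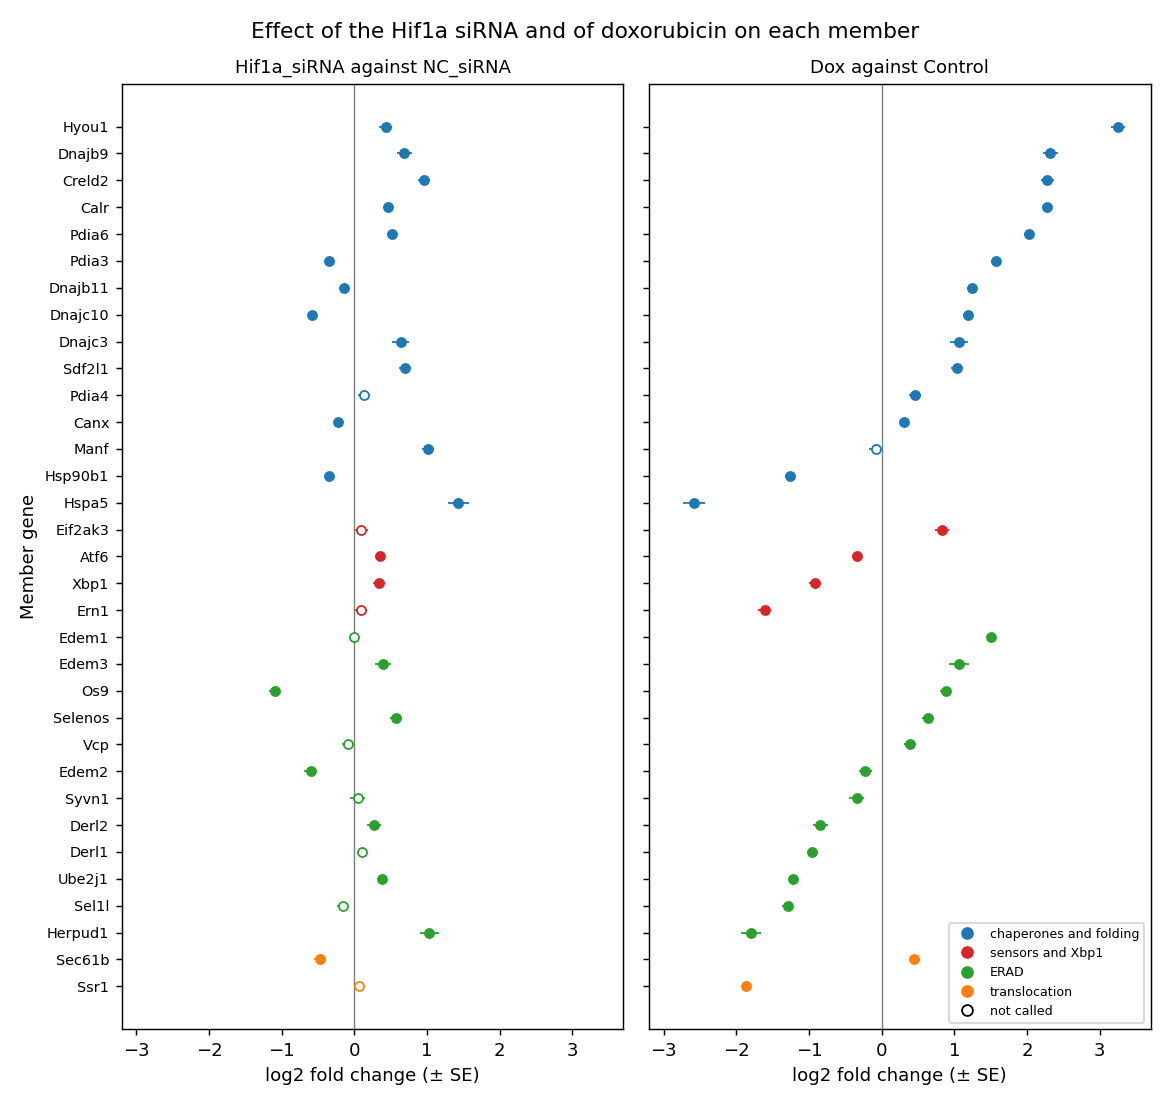
Log2 fold change ± SE of each member in the knockdown comparison (left) and with doxorubicin (right), ordered within roles by the doxorubicin value; open points were not called. Hspa5 lies at 1.43 on the left and −2.58 on the right, Herpud1 at 1.03 and −1.80, and Os9 at −1.10 and 0.88.

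These 2 comparisons share no library, and a knockdown call is relative to NC_siRNA. For Calr, Dnajb11, Dnajc10 and Ube2j1 the Hif1a_siRNA mean did not lie on the called side of the Control mean. Of the 33 members, 9 rose in both (Pdia6, Calr, Hyou1, Dnajb9, Dnajc3, Sdf2l1, Creld2, Edem3 and Selenos; 27.3%, against 18.6% of all tested genes), and 2 fell in both (Hsp90b1 and Edem2; 6.06%, against 15.5%). Higher after knockdown and lower with doxorubicin were 6 members (18.2%, against 12.8% of all genes): Hspa5, Xbp1, Atf6, Herpud1, Derl2 and Ube2j1. Lower after knockdown and higher with doxorubicin were another 6 (18.2%, against 11.6% of all genes): Pdia3, Canx, Dnajb11, Dnajc10, Os9 and Sec61b. The other members were not called in at least 1 of the comparisons.

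The negative control siRNA alone, against Control, raised Edem3 and Eif2ak3 and lowered Hspa5 and Ube2j1. Of 33 members 11 rose and 10 fell, where 33.1% and 33.7% of all tested genes did so (66.8% called either way), and both medians were near 0 (−0.02 over the members and −0.01 over all genes). The groups did not overlap for 21 of 33, against 72.7% of all genes. Edem3 was at 9.52, 16 and 13.9 CPM in Control, 63.4, 61.2 and 54.0 in NC_siRNA, 76.1, 75.7 and 82.5 in Hif1a_siRNA, 25.0, 28.7 and 28.9 in Dox, and 31.3, 32.2 and 37.6 in Hif1a_siRNA_Dox. Transfection thus went with a 4.52-fold higher level (2.18 ± 0.13, edgeR adjusted p = 7.38e-12), the largest change of any member here.

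Eif2ak3 rose by 1.22 ± 0.10, Dnajc3 by 0.80 ± 0.12, Dnajc10 by 0.77 ± 0.07, Dnajb9 by 0.73 ± 0.11, Derl2 by 0.59 ± 0.10, Edem1 by 0.57 ± 0.07 and Sel1l by 0.55 ± 0.07. Decreases were those of Hspa5 (−1.14 ± 0.14), Ube2j1 (−0.73 ± 0.07), Ern1 (−0.65 ± 0.08), Sec61b (−0.65 ± 0.08), Hsp90b1 (−0.50 ± 0.07), Calr (−0.48 ± 0.07), Manf (−0.46 ± 0.08), Sdf2l1 (−0.42 ± 0.09), Canx (−0.23 ± 0.06) and Atf6 (−0.17 ± 0.07). Xbp1 and Herpud1 did not pass (0.00 ± 0.08 and −0.07 ± 0.13).

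Dnajb11 (0.23 ± 0.06), Hyou1 (0.25 ± 0.09) and Os9 (0.21 ± 0.07) rose slightly. Hyou1 did not pass without replicate 1 or 3 of Control (0.18 and 0.21, edgeR adjusted p = 0.0991 and 0.074), nor Os9 without replicate 3 of Control (0.16, edgeR adjusted p = 0.0731) or with upper-quartile factors (0.16, edgeR adjusted p = 0.0595). Atf6 did not pass without replicate 2 of Control (−0.12, edgeR adjusted p = 0.155) or without replicate 1 or 3 of NC_siRNA (−0.16 and −0.15, edgeR adjusted p = 0.0764 and 0.089), while Creld2 passed without replicate 2 of Control (0.26, edgeR adjusted p = 0.0198).

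The comparison of Hif1a_siRNA_Dox with Dox asked what the Hif1a siRNA added to the drug. Here Pdia3 and Pdia4 fell and Eif2ak3 and Creld2 rose. Of 33 members 4 rose and 14 fell, where 21.5% and 20.7% of all tested genes did so, and 3 changed at least 2-fold, against 3.28% of all genes. The median was −0.09 over the members and 0.01 over all genes, and the groups did not overlap for 20 of 33, against 45.6% of all genes. By role, 9 of 15 chaperone and folding genes fell and Creld2 rose.

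Pdia3 was at 568, 572 and 527 CPM in Control, 539, 496 and 508 in NC_siRNA, 416, 405 and 396 in Hif1a_siRNA, 1648, 1553 and 1752 in Dox, and 606, 532 and 518 in Hif1a_siRNA_Dox. The level under the drug was thus 2.99-fold higher without the siRNA than with it (−1.58 ± 0.07, edgeR adjusted p = 2.88e-14), and with both treatments it overlapped that of Control. Pdia4 was at 359, 383 and 354 CPM in Control, 368, 362 and 364 in NC_siRNA, 415, 403 and 386 in Hif1a_siRNA, 505, 465 and 538 in Dox, and 261, 195 and 205 in Hif1a_siRNA_Dox. It was highest in Dox and lowest in the combination (−1.19 ± 0.08, edgeR adjusted p = 1.25e-10). Neither gene had passed with the negative control siRNA against Control (−0.11 ± 0.07 and 0.00 ± 0.08), though Pdia3 did with upper-quartile factors (−0.16, edgeR adjusted p = 0.0425). The effect of that siRNA under the drug was not tested.

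Smaller decreases were those of Vcp (−0.65 ± 0.08), Dnajb11 (−0.58 ± 0.06), Canx (−0.52 ± 0.06), Calr (−0.45 ± 0.07), Hsp90b1 (−0.40 ± 0.07), Hyou1 (−0.39 ± 0.09), Sec61b (−0.36 ± 0.08), Atf6 (−0.36 ± 0.07), Derl1 (−0.32 ± 0.07), Pdia6 (−0.26 ± 0.07), Os9 (−0.26 ± 0.07) and Dnajc10 (−0.18 ± 0.06). Eif2ak3 rose by 1.08 ± 0.10. Its change with the negative control siRNA alone was 1.22 ± 0.10, and transfection and Hif1a cannot be told apart in the comparison with Dox. Creld2 rose by 0.46 ± 0.08, Herpud1 by 0.44 ± 0.14 and Xbp1 by 0.43 ± 0.08. Hspa5 did not pass (0.27 ± 0.14, edgeR adjusted p = 0.137), and passed once replicate 3 of the combination was left out (0.40, edgeR adjusted p = 0.0157).

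Herpud1 did not pass without replicate 1 or 3 of Dox (0.35 and 0.43, edgeR adjusted p = 0.0853 and 0.0545) or without replicate 2 of Hif1a_siRNA_Dox (0.20, edgeR adjusted p = 0.178). Dnajc10 did not pass without replicate 1 or 3 of Dox (edgeR adjusted p = 0.0621 and 0.108), once replicate 3 of the combination was removed (edgeR adjusted p = 0.0628), with RLE factors (edgeR adjusted p = 0.117) or with DESeq2 (adjusted p = 0.103). Sdf2l1 (−0.20 ± 0.08) and Ssr1 (0.15 ± 0.07) passed without 1 library, Sdf2l1 once replicate 2 of the combination was removed (edgeR adjusted p = 0.0151) and Ssr1 without replicate 1 of Dox (edgeR adjusted p = 0.0242). Sdf2l1 also passed with upper-quartile factors (edgeR adjusted p = 0.024) and limma (adjusted p = 0.0409). Ssr1 and Edem3 (0.29 ± 0.12) passed with RLE factors (edgeR adjusted p = 0.0284 and 0.0275) and DESeq2 (adjusted p = 0.0172 and 0.0185). With RLE factors 6 members rose and 13 fell.

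The effect of doxorubicin on cells with little Hif1a mRNA was read from Hif1a_siRNA_Dox against Hif1a_siRNA. Hspa5 and Herpud1 again fell and Hyou1 and Calr rose, both by less than in cells without siRNA. Of 33 members 16 rose and 16 fell, where 42.6% and 41.6% of all tested genes did so (84.2% called either way). At least 2-fold changes were seen in 15 of 33, against 50.2% of all genes. The median was −0.10 over the members and 0.04 over all genes. The groups did not overlap for 32 of 33, against 85.2% of all genes.

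Hspa5 changed by −2.60 ± 0.15 (edgeR adjusted p = 3.14e-10), Herpud1 by −2.32 ± 0.13 and Ssr1 by −1.87 ± 0.07, while Hyou1 rose by 2.18 ± 0.09 (edgeR adjusted p = 5.53e-16), Calr by 1.84 ± 0.07, Creld2 by 1.60 ± 0.08 and Os9 by 1.51 ± 0.07. Set beside Dox against Control, with which this comparison shares no library, 15 members rose in both (45.5%, against 34.8% of all tested genes) and 12 fell in both (36.4%, against 32.6%). Pdia4, Dnajc3 and Edem3 rose without the siRNA and fell after it, and Edem2 fell without it and rose after it. Manf fell here (−0.54 ± 0.08), and Vcp did not pass (−0.10 ± 0.08).

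Weak calls in this comparison were those of Syvn1, Selenos and Canx. Syvn1 (−0.24 ± 0.11) did not pass without replicate 1 or 3 of Hif1a_siRNA_Dox (−0.22 and −0.21, edgeR adjusted p = 0.0896 and 0.111), with RLE factors (−0.23, edgeR adjusted p = 0.054), with DESeq2 (−0.23, adjusted p = 0.0566) or with upper-quartile factors (−0.09, edgeR adjusted p = 0.421), which moved the median of all genes by 0.149. Selenos (0.23 ± 0.08) did not pass without replicate 1 or 3 of Hif1a_siRNA (0.13 and 0.16, edgeR adjusted p = 0.196 and 0.122) or without replicate 2 of Hif1a_siRNA_Dox (0.10, edgeR adjusted p = 0.286). Canx (0.23 ± 0.06) did not pass without replicate 2 of Hif1a_siRNA (0.16, edgeR adjusted p = 0.0531), and Vcp passed once replicate 1 of the combination was removed (−0.20, edgeR adjusted p = 0.02).

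The difference between the drug's effect after the Hif1a siRNA and its effect without siRNA was tested in the same fit. Of the 12 chaperone and folding genes that rose with the drug alone, 9 rose by less after the siRNA, Pdia4 and Dnajc3 fell after it, and the difference of Canx did not pass (−0.07, edgeR adjusted p = 0.504). The difference of Hspa5 did not pass either. A smaller rise was not always a lower level under the drug. Against Dox, the combination was lower for Pdia3, Pdia6, Calr, Hyou1, Dnajb11 and Dnajc10. Dnajb9 and Sdf2l1 were not called there, and Creld2 was higher, at 110 against 80.25 CPM. Without the drug Creld2 was at 36.3 CPM in Hif1a_siRNA and 16.5 in Control. Of 33 members 21 had a lower and 6 a higher log2 change after the siRNA, where 32.3% and 26.3% of all tested genes did so (58.6% called either way), with a median of −0.45 over the members and −0.06 over all genes. Among chaperone and folding genes 12 of 15 were lower and Hsp90b1 was higher. All libraries with the Hif1a siRNA were transfected and none of Control and Dox were, so an interplay of the drug with transfection cannot be told apart from one with Hif1a.

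Edem3 had the largest difference, −2.28 ± 0.18 (edgeR adjusted p = 5.63e-10), with a level that was already high in the transfected cells without the drug. Dnajb9 followed (−1.54 ± 0.14, edgeR adjusted p = 4.82e-09), then Dnajc3 (−1.50 ± 0.17), Pdia4 (−1.33 ± 0.12), Pdia3 (−1.13 ± 0.09) and Hyou1 (−1.08 ± 0.12). Without the drug, Edem3, Dnajb9 and Dnajc3 were higher with the negative control siRNA than in Control. Pdia4 had not passed there, and Pdia3 had passed there with upper-quartile factors alone among the settings run. What the negative control siRNA does under the drug was not tested, so these calls do not tell transfection from Hif1a for any of these genes. On the other side, Sec61b (0.76 ± 0.11, edgeR adjusted p = 4.11e-06) and Os9 (0.63 ± 0.10) rose more with the drug after the siRNA. For Hspa5 the difference was −0.02 ± 0.20 (edgeR adjusted p = 0.946) and for Ssr1 0.00 ± 0.10, and Xbp1, Eif2ak3, Canx and Syvn1 did not pass either.

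**Figure D5:**
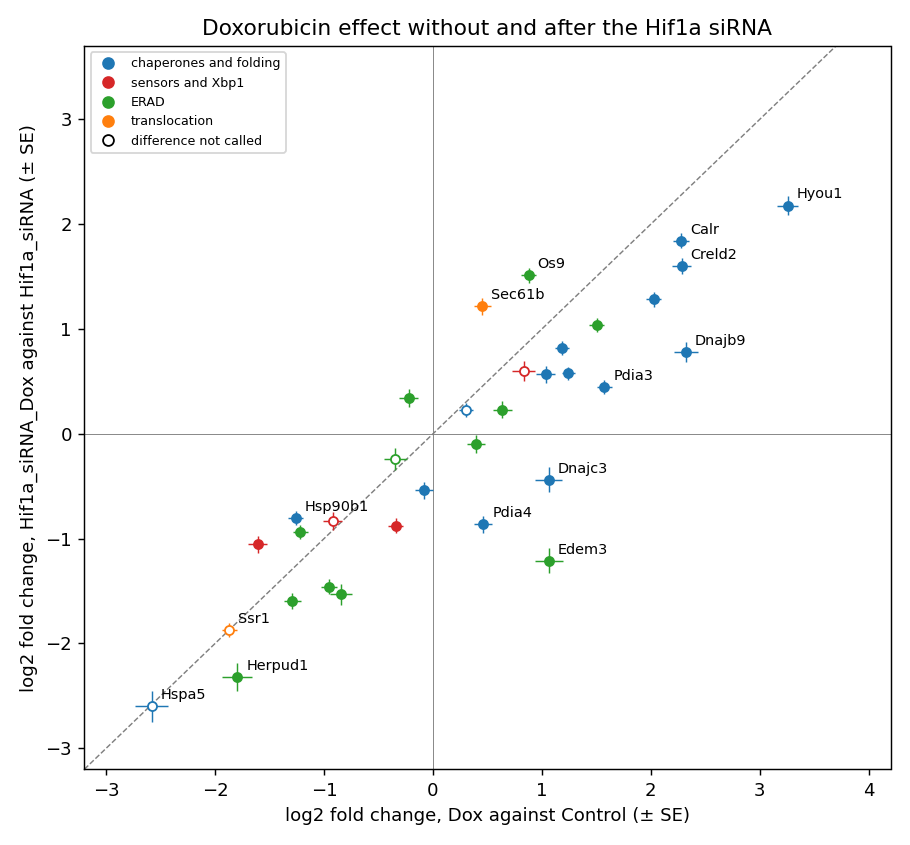
Log2 fold change ± SE of each member with doxorubicin without siRNA (horizontal) and after the Hif1a siRNA (vertical); the dashed line marks equal change, and open points are members whose difference was not called. Hspa5 lies on the line at −2.58 and −2.60, Hyou1 lies under it at 3.26 and 2.18, and Edem3 at 1.06 and −1.21.

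Against Control, the combined treatment raised Hyou1 (2.86 ± 0.09) and Creld2 (2.74 ± 0.09) most and lowered Hspa5 (−2.31 ± 0.15) and Ssr1 (−1.72 ± 0.07) most. Of 33 members 14 rose and 15 fell, where 43.4% and 41.2% of all tested genes did so, 18 of 33 changed at least 2-fold against 52.2% of all genes, and the medians were −0.01 over the members and 0.04 over all genes. The groups did not overlap for 29 of 33, against 82.5% of all genes. Creld2 and Eif2ak3 (1.91 ± 0.10) reached their highest levels of the 5 groups here, apart from every other library. Pdia3 (−0.01 ± 0.07), Manf (0.01 ± 0.08), Sec61b (0.09 ± 0.08) and Syvn1 (−0.22 ± 0.11) did not pass. Vcp (−0.25 ± 0.08) did not pass without replicate 2 of Control (−0.20, edgeR adjusted p = 0.0508) or replicate 3 of the combination (−0.14, edgeR adjusted p = 0.0763), or with upper-quartile factors (−0.16, edgeR adjusted p = 0.0635). Canx, called lower, did not pass with upper-quartile factors (−0.13, edgeR adjusted p = 0.0725), while Sec61b did (0.18, edgeR adjusted p = 0.0436). Syvn1 passed without replicate 2 of the combination (−0.32, edgeR adjusted p = 0.0166). It also passed with RLE factors (−0.24, edgeR adjusted p = 0.048), DESeq2 (−0.24, adjusted p = 0.0492) and every gene listed in these groups (−0.26, edgeR adjusted p = 0.0295). Over the 5 groups, the highest mean fell in Dox for 13 members, in Hif1a_siRNA for 11, in Control and in Hif1a_siRNA_Dox for 4 each, and in NC_siRNA for Sel1l.

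Other genes of ER protein handling were counted from lists of related functions. The 19 oxidoreductases outside the members had 12 higher and 7 lower with doxorubicin (median 1.00), and 4 higher and 10 lower after knockdown (median −0.26). Ero1a, the oxidase that recharges disulfide isomerases, went from 5004 to 219 CPM with the drug (−4.52 ± 0.10, edgeR adjusted p = 5.56e-21) and from 9460 CPM in NC_siRNA to 1210 after knockdown (−2.97 ± 0.09), while the sulfhydryl oxidase gene Qsox1 rose with the drug (2.04 ± 0.08). P4hb, which encodes protein disulfide isomerase itself, fell from 4513 to 665 CPM after knockdown (−2.76 ± 0.07, edgeR adjusted p = 3.41e-20).

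Of 21 further chaperones and folding factors, 13 were higher and 6 lower with doxorubicin (median 0.80), with the prolyl isomerase genes Fkbp9 at 2.21 ± 0.07 and Ppic at 2.35 ± 0.09. After knockdown 4 were higher and 10 lower (median −0.19), among them Fkbp14 (−1.04 ± 0.08) and Fkbp11, which was higher (2.06 ± 0.19) at a low level. Of 22 genes of the translocon, signal peptidase and signal recognition particle, 5 were higher and 15 lower with doxorubicin (median −0.49). Srp68 went from 228 to 16.5 CPM (−3.78 ± 0.09, edgeR adjusted p = 4.2e-21) and Srp72 from 630 to 117 CPM (−2.43 ± 0.07). After knockdown 7 were higher and 9 lower (median −0.09), with the signal peptidase gene Spcs3 at 1.17 ± 0.10 and Sec61g at −1.0 ± 0.08.

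For N-glycosylation and glycan trimming, 12 of 23 genes were higher and 10 lower with the drug (median 0.40), and 6 higher and 16 lower after knockdown (median −0.43). The oligosaccharyltransferase genes Stt3a (−1.84 ± 0.07 with the drug) and Stt3b (−1.49 ± 0.07 after knockdown) fell, the mannosidase gene Man1b1 rose with the drug (1.72 ± 0.07) and Alg5 rose after knockdown (1.11 ± 0.10). Of 31 other ERAD ligases and extraction factors, 15 were higher and 13 lower with the drug (median 0.10), and 17 higher and 8 lower after knockdown (median 0.29). The ligase gene Rnf185 was higher in both (2.06 ± 0.08 and 0.90 ± 0.08), Erlin1 was higher after knockdown (0.85 ± 0.08), and Ube2k was lower with the drug (−2.19 ± 0.08).

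In the list of signalling genes of the response outside the members, 5 of 23 were higher and 14 lower with doxorubicin (median −0.80). Atf4, the transcription factor whose translation follows PERK activity, went from 771 to 74.6 CPM (−3.37 ± 0.09, edgeR adjusted p = 1.12e-19), and its target Trib3 from 169 to 8.13 CPM (−4.38 ± 0.11). After knockdown 12 were higher and 4 lower (median 0.22), including Eif2s1, the substrate of PERK (1.20 ± 0.07), and Ppp1r15a, a subunit of the phosphatase that reverses that phosphorylation (1.36 ± 0.08). As for the members, these counts stand beside 83.8% of all tested genes called with doxorubicin and 67.7% after knockdown.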

How the data were processed

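RNA of 15 samples was isolated with an RNeasy kit and made into stranded mRNA libraries (TruSeq), per the labels' protocols. Per the submitters' processing notes, the mm10 build was used with StringTie 2.1.3b, HISAT2 2.1.0, Bowtie2 2.3.4.1, Trimmomatic 0.38 and FastQC 0.11.7, whose roles are not given in the sources used here. The authors deposited unnormalized counts of reads for each gene. Blank symbols (1491) were filled by gene ID from RefSeq (GRCm38.p6). Repeated IDs (24 to 28 per table outside Control) had identical values and were kept once.

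The 12721 genes listed for all 5 groups were fitted together with edgeR 4.0.16 in R 4.3.3 (TMM, group term, robust quasi-likelihood F tests, two-sided, 10 residual degrees of freedom). The filter (10 reads, total of 15) removed 0 genes. Benjamini-Hochberg adjustment ran over these genes in each comparison, with 0.05 as threshold. SE is the log2 change divided by the root of F. Alternatives included limma 3.58.1 and DESeq2 1.42.0. The procedure was tested on simulated counts with 200 changed genes of 12721. Far more genes were called in these data, so that test does not cover the scaling under such broad change. Replicate numbers did not pair libraries.

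The members and lists were chosen with earlier results of these data known. Every member is named. Values in every library are given for Hspa5, Xbp1, Atf6, Ern1 and Eif2ak3 and for the called members with the 2 largest increases and decreases in each comparison; from other lists, the 2 called genes of smallest p are named.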

Additional observations from a re-analysis of the deposited data

Results flagged for a closer look

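For 27 of the 33 members the log2 change with doxorubicin after the Hif1a siRNA differed from that without siRNA, by edgeR's test of the difference itself, where 58.6% of all tested genes did so. Values are the change after the siRNA minus the change without it. Among chaperone and folding genes the differences were −1.54 for Dnajb9, −1.50 for Dnajc3, −1.33 for Pdia4, −1.13 for Pdia3, −1.08 for Hyou1, −0.74 for Pdia6, −0.68 for Creld2, −0.66 for Dnajb11, −0.47 for Sdf2l1, −0.45 for Manf, −0.44 for Calr and −0.37 for Dnajc10, and 0.46 for Hsp90b1. Among sensors they were −0.53 for Atf6 and 0.55 for Ern1. ERAD genes with a lower change after the siRNA were Edem3 (−2.28), Derl2 (−0.69), Herpud1 (−0.52), Derl1 (−0.50), Vcp (−0.49), Edem1 (−0.46), Selenos (−0.41) and Sel1l (−0.30). Those with a higher one were Os9 (0.63), Edem2 (0.56) and Ube2j1 (0.28), as was Sec61b (0.76).

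The differences of Herpud1 and Sel1l depended on single libraries. Herpud1 did not pass without replicate 1 of Control (−0.45, edgeR adjusted p = 0.0635), replicate 2 of Dox (−0.42, edgeR adjusted p = 0.0759) or replicate 1 of Hif1a_siRNA_Dox (−0.37, edgeR adjusted p = 0.0579), nor with RLE factors (−0.44, edgeR adjusted p = 0.0528). Sel1l did not pass without replicate 1 of Control (−0.21, edgeR adjusted p = 0.0601) or replicate 3 of Hif1a_siRNA_Dox (−0.24, edgeR adjusted p = 0.0535), with RLE factors (edgeR adjusted p = 0.102) or with DESeq2 (adjusted p = 0.11). Eif2ak3 passed without replicate 1 of Dox (−0.35, edgeR adjusted p = 0.0186). Groups of 3 libraries were not searched for outlying libraries.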

How the results depend on the processing

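Counts of called members and of called genes stayed within 1.5 times their value under every alternative run. With one library left out, the number of members called ran from 23 to 24 for Hif1a_siRNA against NC_siRNA, 31 to 32 for Dox against Control, 16 to 18 for Hif1a_siRNA_Dox against Dox, 31 to 32 for Hif1a_siRNA_Dox against Hif1a_siRNA, 19 to 21 for NC_siRNA against Control, 28 to 30 for Hif1a_siRNA_Dox against Control and 25 to 28 for the difference. Of 1584 member values with one library left out, 34 lost and 8 gained a call, and of 2310 under the other alternatives 28 lost and 19 gained one; none reversed. Same-numbered libraries did not deviate together (30 correlations between −0.162 and 0.087, none over 0.1), and 4 of 15 libraries were closest to their own number. With a replicate block 23 members were called in the knockdown comparison, and the block changed no member's call other than that of Dnajb11 there. Depth of 23825110 reads or more leaves counting error small for most members, and Edem3 had the fewest reads, 216 in replicate 1 of Control.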

Other observations

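Genes of export from the ER were counted in the same way, beside 83.8% of all tested genes called with doxorubicin and 67.7% after knockdown. Of 22 genes of the COPII coat and its cargo receptors, 8 were higher and 12 lower with doxorubicin (median −0.59), and 4 higher and 11 lower after knockdown (median −0.20), so 90.9% and 68.2% were called. Kdelr2, a receptor that returns escaped chaperones to the ER, went from 183 to 27.4 CPM with the drug (−2.74 ± 0.08) and was also lower after knockdown (−0.83 ± 0.07). Its relative Kdelr3 was lower after knockdown (−2.54 ± 0.13), and the coat gene Sec23b was lower with the drug (−2.42 ± 0.07).

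Of 17 genes of ER-phagy and ER shape, 6 were higher and 9 lower with doxorubicin (median −0.25), and 5 higher and 9 lower after knockdown (median −0.27), so 88.2% and 82.4% were called, beside the same shares of all genes. Ufl1, the ligase for the ubiquitin-like modifier UFM1, went from 66.7 to 3.65 CPM with the drug (−4.19 ± 0.19), and Ufm1 itself changed by −1.26 ± 0.08. The ER-phagy receptor genes Tex264 (−1.25 ± 0.08) and Calcoco1 (−0.99 ± 0.06) were lower after knockdown.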
